A study of Mus musculus with 3 samples.

Results

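The border of the Day 7 granulation tissue comprised 234 spots of the Visium section taken from wounded dorsal skin of a C57BL/6J mouse, out of 539 spots analysed on that section and 1748 on all 3 sections. A Visium spot is a small printed area of barcoded primers under the tissue. It holds RNA from several neighbouring cells, so it is a region and not a cell. The study excised full-thickness skin with a biopsy punch, and the series holds 1 section each from Day 3, Day 7 and Day 14 after wounding, all from C57BL/6J skin with no further treatment or allele. With a single mouse and section per day, no test over animals was possible. Members were selected on their position, and that position was set by expression. Spots were ranked by the share of their unique molecular identifiers (UMIs, the counted molecules) that came from 10 matrix genes, and the top 15% formed the core. Non-core spots within 2 hexagonal steps of a core spot formed the border, and spots 3 or more steps away are called far.

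Granulation tissue is the provisional tissue that fills a skin wound. It consists of activated fibroblasts, new vessels and macrophages in a collagen-rich matrix, and some of its fibroblasts become contractile myofibroblasts. Its margin abuts whatever layer the wound reached, which in mouse dorsal skin includes dermis, fat, fascia and the thin panniculus carnosus muscle. Injured muscle regenerates from satellite cells, whose young fibres transiently use embryonic and neonatal contractile proteins before switching to adult isoforms.

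The core held 81 spots with 1191429 UMIs, the border 1867884 UMIs and the 224 far spots 1381037 UMIs. Median depth fell with distance, from 13158 UMIs per core spot to 7040.5 per border spot and 4540.5 per far spot. All levels below are pooled counts scaled to 1000000 UMIs (CPM) in a zone, with exact Poisson 95% intervals, or log2 ratios of 2 such levels with exact conditional 95% intervals. These intervals cover counting error only, since spots of 1 section are not replicates, and they were not adjusted over genes. A gene was called higher or lower when the ratio was at least 1.5-fold and its interval excluded no difference. In pooled spots, fewer cells of a type and less RNA per cell cannot be told apart.

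The core was not a single block. It split into 17 pieces, of which the largest held 62 spots, and 14 of the other 16 pieces were single spots. Only 84 border spots therefore lay around the largest piece, at a median of 10209 UMIs, and 150 lay around the smaller pieces alone, at a median of 6148 UMIs. Most border spots thus adjoined small or single-spot pieces and not the main mass of granulation tissue. By side, 91 border spots lay below the nearest core spot (towards the muscle), 57 above it (towards the skin surface), 44 to its right and 42 to its left. By depth in the section, 66 lay in the upper, 111 in the middle and 57 in the lower part. The map of the 3 zones shows this layout.

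**Figure D1:**
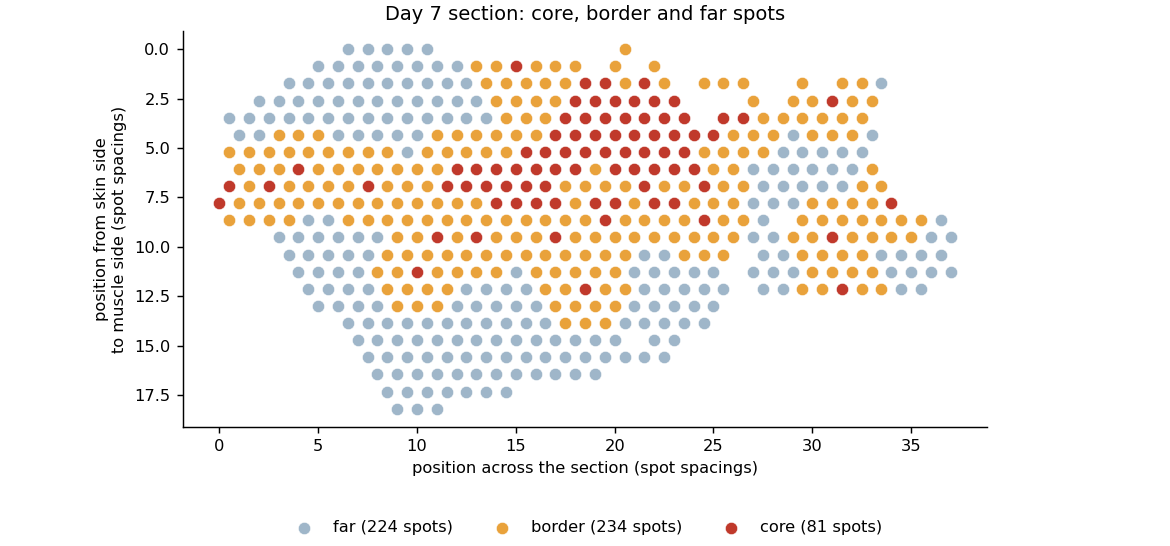
Day 7 spots by position across the section (x axis) and from skin side to muscle (y axis), both in spot spacings, coloured by zone. The 81 core spots form 1 large piece of 62 spots and 16 small ones, the 234 border spots ring all of them, and the 224 far spots fill the remaining marked tissue.

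The rule share had no gap at its threshold. The last 3 core spots had rule shares of 0.500%, 0.501% and 0.503% of their UMIs, and the first 3 spots outside had 0.498%, 0.496% and 0.492%, of which 2 were border spots. Within the border the share ran from 0.0708% to 0.498%, with a median of 0.351%, against medians of 0.628% in the core and 0.273% in the far spots. As a description of the choice, the core exceeded the border in all 9 rule genes with enough UMIs to count. *Col12a1*, a fibril-associated collagen, stood at 1810 CPM in the core, 680 in the border and 616 in the far spots. *Mmp14*, a membrane-bound collagenase activator, was the exception in shape, at 153 CPM in the core, 139 in the border and 49.96 in the far spots. The border was thus close to the core for *Mmp14* and close to the far spots for *Col12a1*.

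The tissue mask also bears on these zones. On the Day 7 slide, 4443 unmarked spots held 6457066 UMIs, more than the 4442962 in marked spots, and 2118 of them reached 500 UMIs. The highest unmarked spot held 51420 UMIs. Unmarked spots 1 or 2 steps from marked ones had a muscle fibre list level of 90590 CPM and a basal epidermis list level of 5483 CPM, so RNA of both tissues was counted outside the marked area. Muscle fibre transcripts were counted in every border spot, at 20735 CPM or more. The part of unmarked tissue and of free RNA in the zone differences was not tested.

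Of 32285 genes in the file, 6700 had at least 100 UMIs over the 3 zones and were compared. Relative to the far spots, the border was higher in 215 genes (3.21% of genes compared) and lower in 196 (2.93%). Relative to the core, it was higher in 736 genes (11.0%) and lower in 375 (5.60%). More genes thus differed from the core than from the far spots, but around the largest core piece alone the order turned, with 384 higher and 358 lower than far against 483 higher and 187 lower than core. Most genes fell in between, as 3748 of the 6700 had a border level between those of core and far. The median log2 ratio over all genes was 0.03 against far and 0.05 against the core. These percentages are the background for the counts of listed genes given below. Both comparisons use the same border spots and so are not independent of each other. Genes past the fold in both steps of a falling gradient numbered 18, while 81 genes passed it in both steps of a rising gradient. These counts keep in the 9 rule genes compared, whose levels set the zones. Of these, 2 are among the genes higher than far and 7 among those lower than core. The 18 include the rule gene *Timp1*. A border level above both other zones was called for 31 genes (0.463%) and a level below both for 6 genes (0.0896%).

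**Figure D2:**
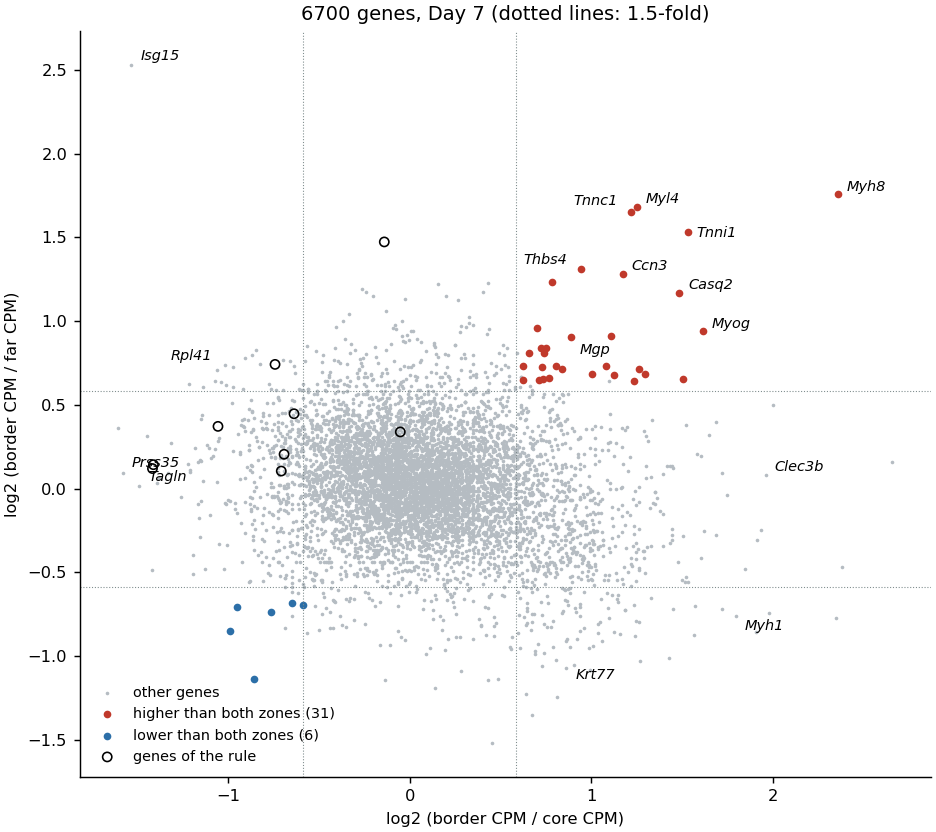
Log2 ratio of border over core (x axis) and of border over far (y axis) for the 6700 genes compared, with the 31 genes higher than both zones in red, the 6 lower than both in blue, the rule genes as rings and 1.5-fold as dotted lines. Both axes share the border counts, and of the 31 red genes *Myh8* has the highest value on each axis, 2.36 and 1.76.

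The genes that stood highest in the border against both zones were contractile genes of young or slow muscle. *Myh8* encodes the perinatal myosin heavy chain (ENSMUSG00000055775, chr11:67277124-67308634, plus strand, GRCm38). It had 29 UMIs in the core, 233 in the border and 51 in the far spots, or 24.3, 125 and 36.9 CPM. The border was thus 3.38-fold above far (log2 1.76, 95% interval 1.31 to 2.22) and 5.12-fold above the core (log2 2.36, 1.80 to 2.97). *Myl4* encodes the embryonic and atrial alkali myosin light chain (ENSMUSG00000061086, chr11:104550663-104595753, plus strand). Its levels were 125 CPM in the core, 298 in the border and 92.7 in the far spots, a 3.21-fold excess over far and a 2.38-fold excess over the core. *Tnni1*, the slow skeletal troponin I, stood at 26.9, 77.6 and 26.8 CPM in the same order. *Tnnc1*, the slow and cardiac troponin C, had 29, 106 and 25 UMIs and was 3.13-fold above far. *Myog*, the transcription factor myogenin that drives myoblast differentiation, had 20, 96 and 37 UMIs and was 1.92-fold above far and 3.06-fold above the core. *Chrna1*, the muscle acetylcholine receptor alpha subunit, *Casq2*, a calcium store protein, and *Cav3*, the muscle caveolin, were also above both zones, but kept that call in only 7, 10 and 7 of 18 alternative settings.

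These muscle transcripts were concentrated in few border spots. Of the 789 border UMIs of *Myh8* and *Myl4* together, 471 (59.7%) came from 10 of the 234 spots, which held 11 to 103 each. The median border spot had 1 such UMI, and 82 had none. All 10 spots lay in the middle depth part, and 9 of them formed a patch on the left flank of the section. Only 3 of the 10 had the largest core piece as their nearest, and the other 7 were nearest to a single-spot piece, at 1 or 2 steps. The call over far depends on the share of spots taken as core. With the core set at 10% of spots, 6 of the 10 spots, with 335 of the UMIs, joined the far zone and the ratio of *Myh8* to far turned to a log2 of -0.64, while *Myl4* stood at 0.30. *Tnnc1* turned to -0.51 and *Myog* to -0.045 under the same setting, as did *Casq2* (-1.07) and *Chrna1* (-1.16). Against the core, *Myh8* kept a log2 ratio of 2.17 at that setting. With the largest core piece and its own border alone, *Myh8* and *Myl4* stood above far by 0.94 and 1.54.

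Of 13 genes listed for regenerating muscle, 7 had enough UMIs to compare. *Myh8*, *Myog* and *Chrna1* were the 3 higher than far, 5 were higher than the core and 2 were lower than the core. The 2 lower genes, *Ncam1* and *Runx1*, are also made outside muscle. The list's median log2 ratio was 0.37 against far and 1.06 against the core, beside 0.03 and 0.05 for all genes. The pooled list level was 745 CPM in the core, 1310 in the border and 1110 in the far spots, but the median border spot (1074 CPM) was close to the median far spot (1057 CPM) and the highest border spot reached 11164 CPM. Genes of the list under the UMI minimum included *Mymx*, a myoblast fusion peptide, with 15, 40 and 4 UMIs in core, border and far, and *Tnnt2*, a troponin T of embryonic muscle, with 9, 67 and 15. Both are picked examples, and the other listed genes under the minimum are not given, so the pair does not stand for the list. The adult fibre genes had another distribution. All 12 were higher in the border than in the core, none was higher than far, and *Myh1* and *Myh2*, adult fast myosins, were lower than far. The core was chosen on a high share of matrix genes. Here and in later lists, genes of other tissues can be higher in the border than in the core through that choice alone, which was not tested. *Myh1* stood at 228 CPM in the core, 794 in the border and 1342 in the far spots. *Acta1*, skeletal actin, was higher than in the core by a log2 of 0.92, at 11602 against 6112 CPM.

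**Figure D3:**
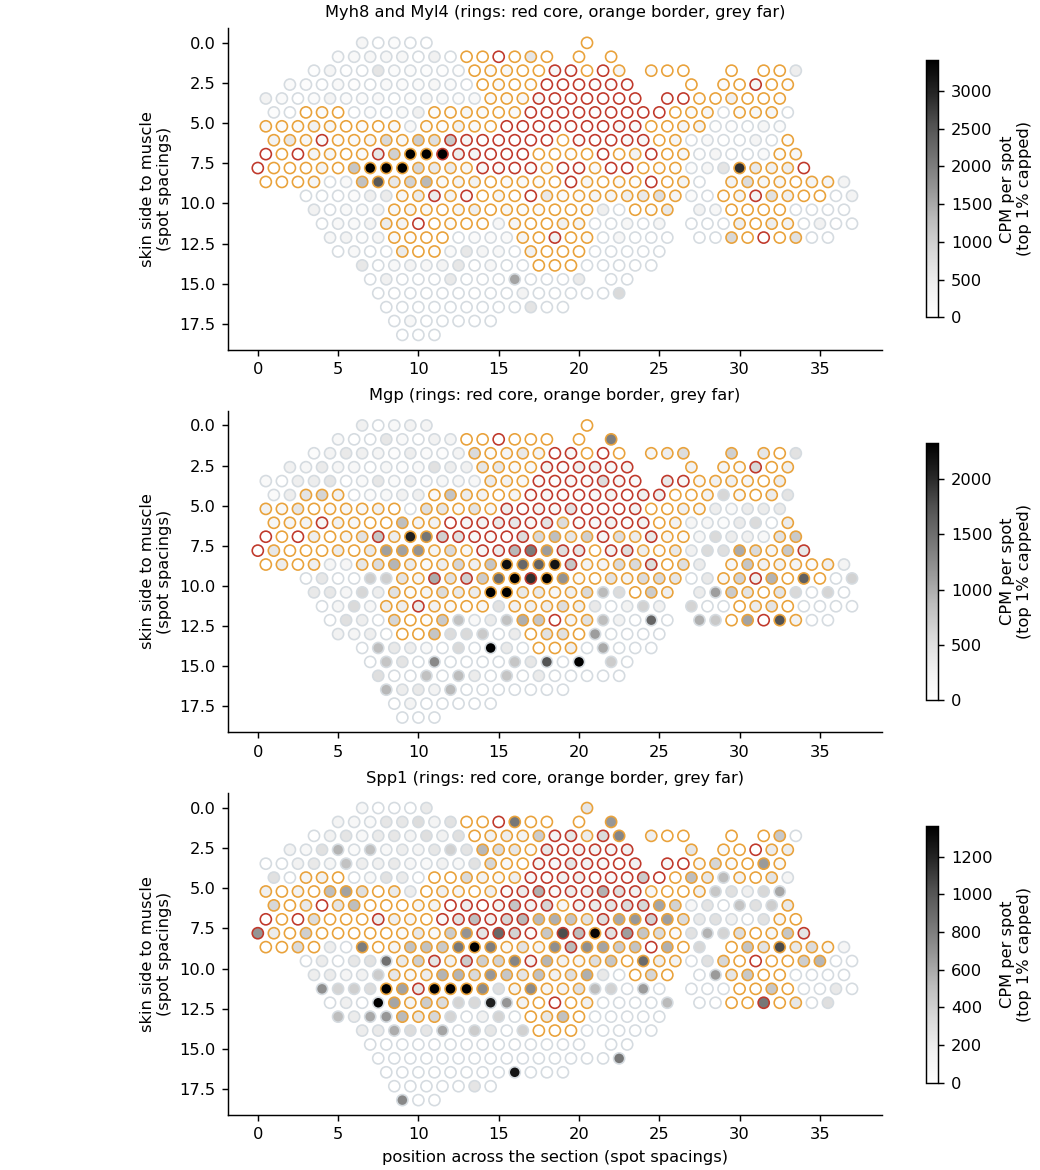
CPM in each Day 7 spot (grey scale, capped at the top 1%) of *Myh8* and *Myl4* summed, of *Mgp* and of *Spp1*, drawn in spot spacings, with rings in red for core, orange for border and grey for far. *Myh8* and *Myl4* are dense in a patch on the left flank that holds 9 of their 10 highest border spots. *Mgp* is spread over more of the border, and *Spp1* is scattered over both border and far spots.

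Several of the other genes above both zones encode secreted proteins, a grouping made after their values were seen. *Mgp* encodes matrix Gla protein, a secreted inhibitor of mineralisation (ENSMUSG00000030218, chr6:136872435-136875823, minus strand). It had 325 UMIs in the core, 943 in the border and 373 in the far spots, or 273, 505 and 270 CPM. The border was 1.87-fold above far (log2 0.90, 0.73 to 1.08) and 1.85-fold above the core (log2 0.89, 0.70 to 1.07). It was spread more widely than the muscle genes, since 187 border spots had at least 1 UMI and the 10 highest held 34.6% of the total. Even so, *Mgp* lost the call above both zones with the mean of spot CPM and without the 5% of spots richest in it. It also lost the call with the core at 20% of spots. *Myh8* and *Myl4* kept the call in these settings. *Ccn3*, a matricellular protein also called NOV (ENSMUSG00000037362, chr15:54745702-54754039, plus strand), stood at 32.7, 73.9 and 30.4 CPM in core, border and far. *Ccn3* was the gene with the steadiest call, above both zones under each of the 18 alternative settings run. *Thbs4*, thrombospondin 4, a glycoprotein of tendon and muscle matrix, stood at 42.0, 80.8 and 32.6 CPM, with 47.0% of its border UMIs in 10 spots. *Cilp* (82.3, 130 and 73.9 CPM) and *Spon2* (52.9, 92.6 and 55.8 CPM) are secreted matrix proteins with smaller excesses, 1.75-fold and 1.66-fold above far. Of the 18 alternative settings, *Cilp* kept the call above both zones in 13 and *Spon2* in 16. *Sfrp4*, a secreted Wnt inhibitor, *Matn4*, a matrix adaptor protein, and *Igf2*, a growth factor of fetal tissue and regenerating muscle, were further members, at 1.79-fold, 1.64-fold and 1.61-fold above far. With the core at 10% of spots, *Igf2* turned to a log2 of -0.19 against far. Without the spots richest in muscle fibre genes, *Igf2*, *Matn4* and *Sfrp4* were no longer called above both zones, and *Sfrp4* kept the call in 6 of 18 settings. *Nes*, which encodes not a secreted protein but the intermediate filament nestin, had 111, 311 and 140 UMIs and was found in 144 border spots.

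Of the 16 listed dermal fibroblast genes, 4 were higher in the border than far, 4 were higher than in the core, and none was lower than either. *Mgp* and *Cilp* passed in both comparisons. *Ogn*, the small proteoglycan osteoglycin, was higher than far (log2 0.91) and level with the core (-0.04). *Sfrp2* likewise was higher than far by 0.64, with a log2 of -0.33 against the core. *Eln*, elastin, and *Gsn*, the actin-severing protein gelsolin, were higher than the core by 0.89 and 0.59 and not higher than far. The list medians were 0.34 against far and -0.00 against the core. Of the 10 fascial fibroblast genes compared, none was called against far and 5 were higher than in the core. *Clec3b*, tetranectin, stood at 32.7 CPM in the core, 127 in the border and 120 in the far spots. *Pi16*, a marker of resting adventitial and fascial fibroblasts, stood at 59.6, 140 and 177 CPM. For both genes the border level was nearer to the far level than to the core level.

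Of 11 genes of activated fibroblasts and myofibroblasts compared, 6 were lower in the border than in the core and none was called against far. The core was chosen on a high share of matrix genes. Here and in later lists, genes expressed together with those can be lower in the border through the choice alone, which was not tested. *Tagln*, transgelin of the contractile apparatus, stood at 259 CPM in the core, 92.1 in the border and 91.2 in the far spots. *Acta2*, smooth muscle actin, stood at 708, 423 and 340 CPM. *Postn*, periostin, stood at 6238, 3161 and 2221 CPM, and *Tnn*, tenascin N, at 528, 236 and 251. *Tpm1* and *Tpm2*, tropomyosins that skeletal muscle also makes, were the 2 listed genes higher than in the core, by 0.68 and 0.87. Outside the list, *Prss35*, a serine protease family member, fell from 530 CPM in the core to 177 in the border (log2 -1.58), and *Crabp1*, a retinoic acid binding protein, from 651 to 280. For both, border and far differed by less than 1.5-fold.

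Of 14 collagen genes, 4 were called in either comparison. For these and the other matrix genes below, a border level under the core can likewise follow from how the core was chosen. *Col1a1* stood at 37500 CPM in the core, 30946 in the border and 24078 in the far spots, and neither step reached 1.5-fold. *Col3a1* (19708, 12861 and 10034 CPM), *Col5a2* and *Col6a3* were lower in the border than in the core, and *Col8a1* (70.5, 55.1 and 29.7 CPM) was higher than far. The other 10 of the 14 listed collagens passed in neither comparison. The list medians were 0.34 against far and -0.38 against the core. Among collagen-modifying enzymes, 1 of 14 was higher than far and 4 were lower than core. That 1 gene, *P3h4*, a subunit of a lysyl hydroxylation complex, was also lower than core, at 118, 74.95 and 44.2 CPM. Among 14 proteoglycan and elastic fibre genes, 7 were lower than core, including *Fbln2* (fibulin 2, log2 -0.86) and *Efemp2* (fibulin 4, -0.88), while *Efemp1* (1.02) and *Prelp* (0.66) were higher than core. *Has2*, a hyaluronan synthase, was lower than far by 0.65 with 44 border UMIs. Of 13 metalloproteinases and their inhibitors, 4 were lower than core (*Mmp11*, *Mmp13*, *Adam12* and *Adamts12*) and none was called against far. The list leaves out the rule genes *Mmp14* and *Timp1*. Both were higher than far, but their levels helped to set the zones, so they add nothing to the list result. Other genes that declined past the fold at both steps, singled out after their values were seen, were *Olfml3* (474, 277 and 180 CPM), *Islr* (233, 150 and 93.4 CPM) and *Aebp1* (1174, 769 and 510 CPM), all expressed by fibroblasts.

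**Figure D4:**
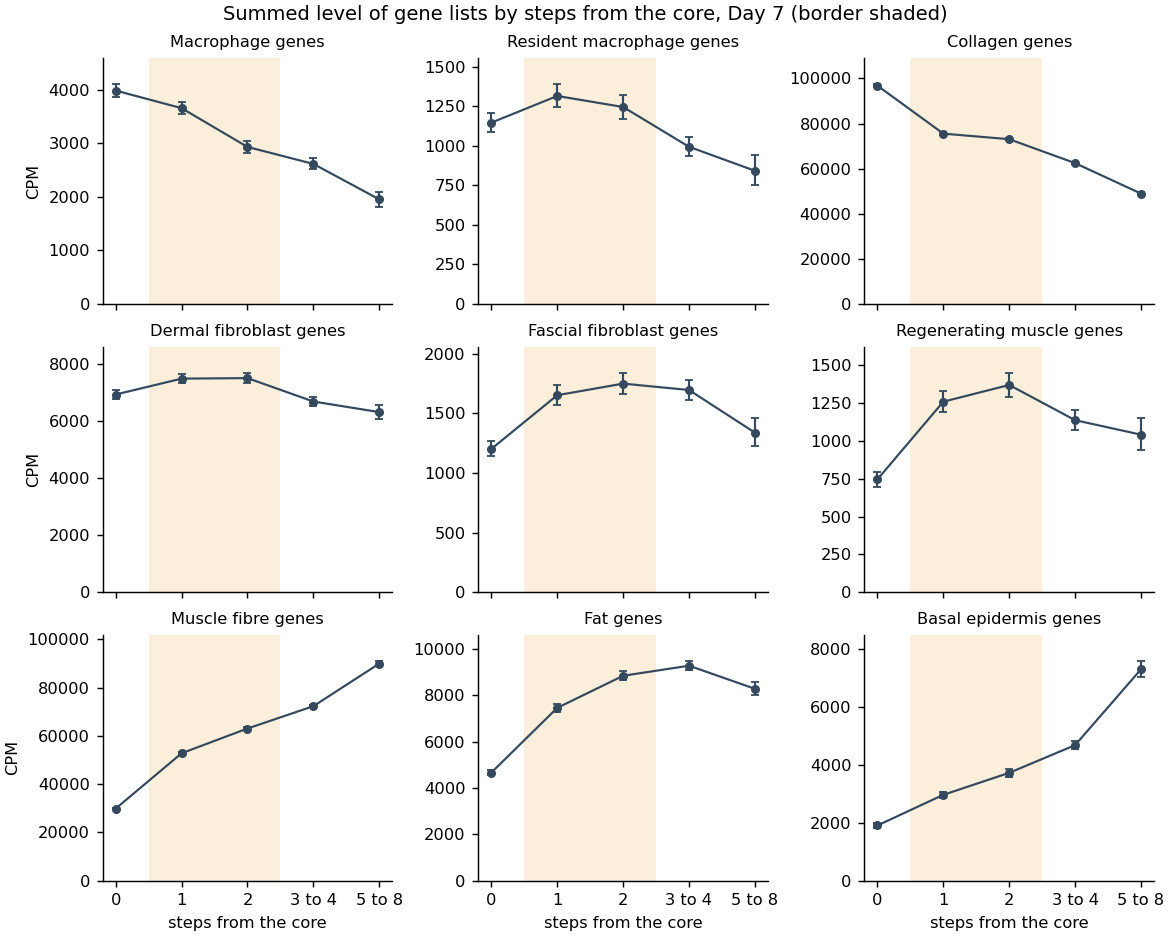
Summed CPM of 9 gene lists (linear axes from 0, 1 panel each) at 0, 1, 2, 3 to 4 and 5 to 8 steps from the core, with exact Poisson 95% intervals and the border steps shaded. Macrophage and collagen lists go down from the core outwards, and muscle fibre and basal epidermis lists go up. Resident macrophage, dermal fibroblast, fascial fibroblast and regenerating muscle lists have their highest point at a border step.

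Some macrophage genes were higher in the border than in the far tissue. Of the 12 pan-macrophage genes, 5 were higher than far and none differed from the core by the fold used. Cathepsin S (*Ctss*) stood at 239 CPM in the core, 218 in the border and 123 in the far spots, and *Cd68*, a lysosomal macrophage protein, at 118, 98.0 and 57.2. *Tyrobp*, a signalling adaptor, *Aif1* and *Ms4a7* were higher than far by 0.68, 0.61 and 0.60. *Lyz2*, lysozyme, with the most UMIs on the list, stood at 1396, 1069 and 812 CPM and did not reach the fold in either comparison. The pooled list fell from 3983 CPM in the core to 3317 in the border and 2432 in the far spots, and by steps from 3654 at step 1 to 2930 at step 2. Spots overlapped widely, with medians of 3477 in the core, 2606 in the border and 2112 in the far zone, and a highest border spot of 13987 CPM.

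The genes listed for resident, anti-inflammatory macrophages had another profile. Of 9 compared, 6 were higher in the border than in the core: *Mrc1* (the mannose receptor CD206), *Folr2*, *F13a1*, *Cbr2*, *Gas6* and *Ccl8*. *Mrc1* stood at 56.2 CPM in the core, 101 in the border and 68.8 in the far spots, and *Folr2* at 15.9, 35.9 and 38.4 from 19, 67 and 53 UMIs. *Ccl8*, a monocyte-attracting chemokine, was higher than both zones, with 110, 287 and 135 UMIs and excesses of 1.66-fold over the core and 1.57-fold over far. It was detected in 123 border spots. *Pf4* and *Wfdc17* had core levels above the border, and *Wfdc17* was higher than far (log2 0.61). The pooled list stood at 1147, 1283 and 952 CPM in core, border and far, with 1315 at step 1 and 1245 at step 2. Of 10 genes listed for repair macrophages, 1 was higher than far and 1 higher than core. The first, *Spp1* (osteopontin), had 261, 612 and 299 UMIs, and its log2 ratio of 0.58 to the core (0.37 to 0.80) fell just short of the fold. None of the 7 MHC class II and dendritic genes was called in either comparison, with list medians of 0.25 and -0.00. *Clec4n* (Dectin-2), a fungal lectin receptor of myeloid cells with 27, 73 and 23 UMIs, and *Il33*, an alarmin cytokine with 38, 92 and 41, were 2 other immune genes above both zones. Of 18 alternative settings, *Clec4n* and *Ccl8* kept the call in 11 and *Il33* in 5.

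Few vascular genes were called. None of 13 endothelial genes compared was called against far. *Tek* was higher than core (15.9, 27.8 and 25.3 CPM in core, border and far) and *Eng* and *Vwf* were lower than core. None of the 7 pericyte genes was called. The endothelial list level was 914, 799 and 681 CPM in core, border and far.

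In the transforming growth factor beta pathway, which drives matrix synthesis and myofibroblast differentiation, the ligand *Tgfb1* stood at 61.3 CPM in the core, 59.4 in the border and 29.7 in the far spots, a log2 of 1.001 over far (0.47 to 1.55). *Tgfb3* was higher than far by 0.69, and these were 2 of the 10 ligand and latency genes compared. The receptor *Tgfbr2* was higher than far by 0.59. Of 12 receptor, mediator and target genes, 4 were lower than core, namely *Tgfbr1*, *Acvr1*, *Ccn1* and *Tgfbi*, which stood at 361, 193 and 185 CPM. Among 7 chemokines, *Ccl6*, *Ccl9*, *Ccl11* and *Cxcl14* were higher than core, and *Ccl5* was higher than far with 50 border UMIs. *Cxcl14*, an epithelial and fibroblast chemokine, was lower than far and higher than core, at 40.3, 89.4 and 139 CPM. In the list of 11 growth factors and insulin-like growth factor binding proteins, *Igf2* was the 1 gene called, against both zones.

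Epidermal and fat genes were mostly higher in the border than in the core. As for muscle fibre genes, a low core level of these genes can follow from how the core was chosen, which was not tested. Of 10 basal epidermal genes, 9 were lower in the border than far and 8 were higher than in the core. *Krt15*, a keratin of basal cells and the hair follicle bulge, stood at 295 CPM in the core, 606 in the border and 1059 in the far spots. *Krt5* and *Krt14*, the basal keratin pair, were lower than far by 0.74 and 0.60 and higher than core by 0.84 and 0.88. Of 11 suprabasal genes, 6 were lower than far and 11 were higher than core. The deficit against far depends on pooling, since with the mean of spot CPM the suprabasal list stood 0.11 above far. The median border spot had 2376 CPM of suprabasal and 3400 CPM of basal genes, and the median far spot 2123 and 3378 CPM. *Krt77*, a suprabasal keratin, was lower than far by 1.07, with 380, 1083 and 1682 UMIs in core, border and far. Of 7 wound-edge epidermis genes compared, 1 was lower than far and 3 were higher than core. All 12 fat genes were higher than core and none was called against far. The border and far zones also lay at different depths. Of the far spots, 132 of 224 lay in the lower part, against 57 of 234 border spots. The middle part held 30 of the far spots and 111 of the border spots. With far weighted by depth, 21 of the 31 genes above both zones kept that call. *Ccl8*, *Nes* and *Matn4* were among those that lost it.

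Parts of the border differed among themselves. In the upper, middle and lower parts the level of *Mgp* was 222, 688 and 403 CPM. By side it was 720 CPM to the left of the core, 595 to the right, 472 below and 324 above. *Myh8* stood at 35.2, 193 and 55.0 CPM from upper to lower part, and *Myl4* at 86.3, 461 and 121. The middle part was therefore highest for all 3 genes. *Ccn3* was highest in the middle part too, at 102 CPM against 30.0 in the upper and 58.6 in the lower part, and *Spp1* stood at 171, 442 and 224. The macrophage list also peaked in the middle part, at 2622, 3881 and 2638 CPM, and was 3797 below the core against 2841 above it. *Ccl8* had another order, at 224 CPM in the upper part, 127 in the middle and 110 in the lower. *Krt15* stood at 900 CPM in the upper part, 480 in the middle and 465 in the lower. Around the largest core piece the border had a macrophage list level of 3772 CPM and a muscle fibre level of 44197 CPM, and around the smaller pieces alone 2927 and 68988 CPM. In that last set *Mgp* stood at 441 CPM against 579 around the largest piece, *Ccn3* at 85.5 against 60.3, and *Myh8* at 171 against 70.8.

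By step from the core, *Mgp* stood at 273 CPM in the core, 517 at step 1, 491 at step 2, 297 at steps 3 and 4 and 199 at steps 5 to 8. *Ccn3* was highest at step 2, at 91.9 CPM, with 58.1 at step 1 and 33.7 at steps 3 and 4. *Myh8* stood at 131 and 117 CPM at steps 1 and 2 and at 30.8 at steps 3 and 4. These genes thus had their highest levels at 1 of the 2 border steps, which is in part what the call above both zones selects. The list of 14 collagens, fibrillar and other, went down from 96814 CPM in the core through 75536, 73064 and 62445 to 48937 at steps 5 to 8. Its high core level can in part follow from the choice of the core on matrix genes.

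The 9 candidate genes named in the study were divided in the border. The study drew on other wounds and its own single-cell data to choose them, and also examined them in its Visium sections. Its abstract names the Visium data among the sources of the 9 genes, so they are not independent of the section described here. *Lrrc17*, a secreted leucine-rich repeat protein, declined past the fold at both steps, from 224 CPM in the core to 119 in the border and 69.5 in the far spots. *Itgbl1*, an integrin beta-like matrix protein, stood at 171, 120 and 88.3 CPM and passed at neither step. *Clec3b*, *Pi16*, *C3*, *C4b* and *Ccl11* were higher than core, and none of them was called against far. *C3*, the central complement component, stood at 95.7, 166 and 206 CPM. *Ccl7* was not called, and *Saa3*, an acute-phase protein, was under the UMI minimum with 9, 44 and 15 UMIs. Of the 8 genes given for the study's fibroblast subcluster F1, which include *Mgp*, *Cilp* and *Eln*, 2 were higher than far and 5 higher than core.

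Few genes were lowest in the border. The 6 called below both zones (*Dcaf13*, *Pno1*, *Trmt2a*, *Chmp1b*, *Farsa* and *Pald1*) had 30 to 72 border UMIs each. *Dcaf13* and *Pno1*, both ribosome assembly factors, had 32 and 30 border UMIs, and the largest of the 6 deficits against far was a log2 of -1.14 for *Dcaf13*. The 31 genes above both zones had 58 to 943 border UMIs. Of 90 ribosomal protein genes compared, whose reads can be shared with near-identical pseudogenes, 2 were higher and 2 lower than far, and 1 was higher and 8 lower than core. Ribosomal protein genes made up 10.3%, 8.18% and 7.36% of UMIs in core, border and far. Mitochondrially encoded transcripts made up 2.34%, 3.75% and 4.91%, and their part in the zone differences was not tested.

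The same rule was applied to the other days, giving 209 border spots on Day 3 (median 1599 UMIs) and 343 on Day 14 (median 5619 UMIs). Each core is the top 15% of its own section, so the zones need not match across days. The lowest rule share in the core was 0.290% on Day 3 and 0.191% on Day 14, against 0.500% on Day 7. The Day 3 core split into 19 pieces, 13 of them single spots, and the Day 14 core into 31, 23 of them single. Days, mice and sections cannot be told apart. On Day 3, *Mgp* stood at 32.5, 215 and 108 CPM in core, border and far, so it was again highest in the border, from 12, 117 and 91 UMIs. On Day 14 its levels were 163, 148 and 124 CPM, and the border was no longer above the core. *Ccn3* had 0, 9 and 13 UMIs on Day 3, and on Day 14 it was highest in the core, at 152 CPM against 41.1 in the border and 26.9 in the far spots. *Myh8* had 0, 0 and 3 UMIs on Day 3, and on Day 14 it stood at 46.03, 18.7 and 3.67 CPM from 26, 45 and 6 UMIs, lower in the border than in the core (log2 -1.302). *Myl4* was highest in the core on Day 14 too, at 110, 37.3 and 17.7 CPM. *Prss35* was highest in the core on Day 14 too, at 186, 40.2 and 22.6 CPM.

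Across the 3 days the macrophage list was above far in the border, by 0.81 on Day 3, 0.45 on Day 7 and 0.38 on Day 14, and the muscle fibre list below it, by -0.50, -0.42 and -0.20. Other lists had opposite signs on Day 3 and Day 7, a difference that was not tested. The collagen list was below far on Day 3 (-0.32) and above it on Day 7 (0.34) and Day 14 (0.27), and basal epidermal genes were above far on Day 3 (0.20) and below it on Day 7 (-0.70) and Day 14 (-0.57). Of genes compared on both days, Day 7 and Day 3 shared 1 gene above both zones, out of 8 on Day 7 and 32 on Day 3 (1.07% of genes compared). Day 7 and Day 14 shared 0, out of 19 and 20 (0.326%).

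**Figure D5:**
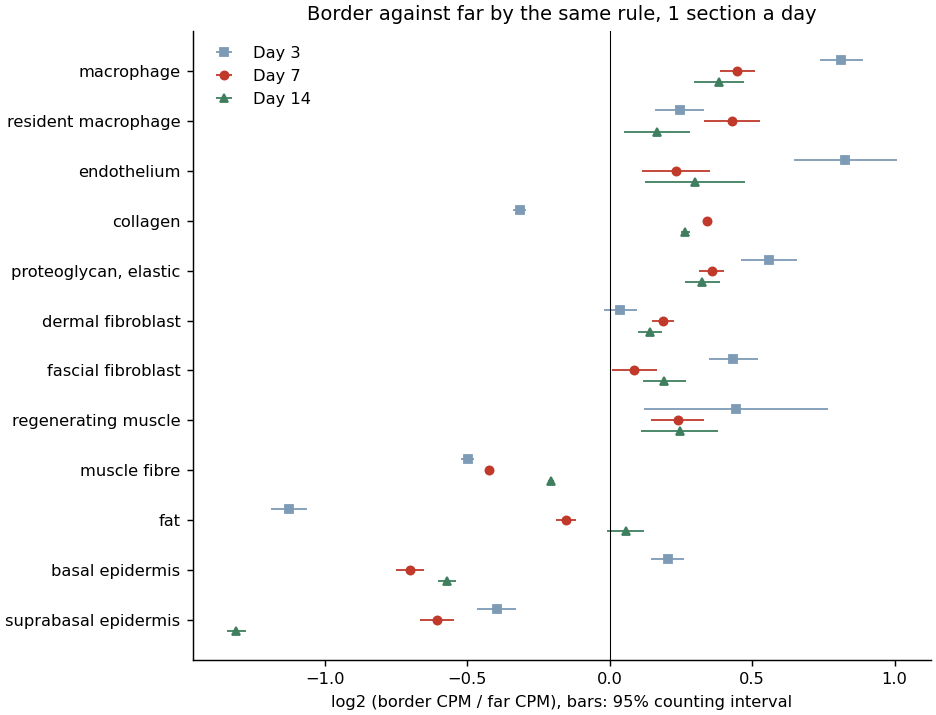
Log2 ratio of border over far CPM (x axis) of 12 gene lists on Day 3 (squares), Day 7 (circles) and Day 14 (triangles), 1 section each, with exact conditional 95% intervals that cover counting error only. The macrophage list lies above 0 against far on each day, and the collagen and basal epidermis lists change sign between Day 3 and Day 7.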

How the data were processed

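Spatial RNA-seq (10x Visium) of 1 section of wounded skin per day was analysed. The deposited values are raw UMI counts per gene and spot, with a mark for spots the authors assigned to tissue. Per the labels, the authors used Space Ranger 1.3.0 and mm10. The matrix holds 32285 genes and 4992 spots. Marked spots with at least 500 UMIs were kept (539 of 549 on Day 7). Zones were built from the 10 rule genes and hexagonal distance, UMIs were summed by zone, and ratios were given exact conditional binomial 95% intervals (Python 3.11.15, scipy 1.17.1). No replicate exists, so no count model was tested; edgeR 4.0.16 and DESeq2 1.42.0 (R 4.3.3) supplied alternative scaling factors only. Genes with at least 100 UMIs over the 3 zones were compared; a gene passes this minimum more readily when 1 zone is high, and list genes below it are given as UMIs only. No deconvolution or doublet caller was applied.

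Members and 41 gene lists were chosen with earlier results of these data known. Genes named were the 12 highest above and the 12 lowest below both zones, the 10 highest and lowest of each comparison (in order of the inner bound of the interval), the rule genes, examples from the lists, and the study's 9 candidates. Gene positions are from the GENCODE annotation of GRCm38. The scripts were tested on simulated data. Settings varied the core share, border width, far distance, UMI minima, scaling, depth weighting, core pieces and tissue content, of which the removal of the 5% of spots richest in each gene and the restriction to core pieces of 2 or more spots were chosen after seeing the data. Other days were compared only for the same rule.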

Additional observations from a re-analysis of the deposited data

Results flagged for a closer look

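Several border contrasts had the opposite sign on another day, with intervals on both sides of no difference. The differences between days were not tested, and each day is 1 section of 1 mouse. Zones were set within each section, so core and far need not mark like tissue in another section. The Day 14 core had a median rule share of 0.238%, under the 0.273% of Day 7 far spots. A change of sign against the core can therefore follow from a different core. The contractile genes *Tnnc1* and *Tnni1* were above far on Day 7 (log2 1.65 and 1.53) and below far on Day 3 (-1.12 and -1.69). *Myl4*, *Ccn3* and *Ccl8* were above the core on Day 7 (1.25, 1.17 and 0.73) and below it on Day 14 (-1.56, -1.89 and -0.77). The mast cell list, with 1 gene past the UMI minimum, stood at 1.19 over the core on Day 7 and at -1.07 on Day 14. *Crabp1* was below the core on Day 7 (-1.22) and above it on Day 3 (1.31), as was *Fundc2* (-0.88 and 0.82). *Tagln* was below the core on Day 7 (-1.49) and above it on Day 14 (0.61). *Rpl35*, whose reads can be shared with pseudogenes, was above far on Day 7 (0.62) and below far on Day 3 (-0.77).

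Outside the marked tissue, 45 unmarked spots within 2 steps of the Day 7 core held 211805 UMIs, of which 648 (0.306%) came from the 10 rule genes. Their median depth was 3661 UMIs, and these spots entered no comparison.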

How the results depend on the processing

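Of 108 gene counts recomputed under 18 alternative settings, 73 stayed within 1.5 times the reported count and 35 did not. Genes higher than far (215 as reported) numbered 373 with the core at 10% of spots, 332 with the border to 3 steps, 405 with far from 5 steps, 696 with the mean of spot CPM, 93 at 200 UMIs a gene and 384 for the largest core piece. Among settings chosen after seeing the data, they numbered 367 without the 5% of spots richest in each gene and 343 with core pieces of 2 or more spots. Genes lower than far (196) numbered 417 with the core at 10%, 326 and 75 at 50 and 200 UMIs a gene, 358 for the largest piece and 327 for pieces of 2 or more. Genes higher than core (736) numbered 432 at 200 UMIs and 483 for the largest piece. Genes lower than core (375) numbered 245 with the core at 10%, 212 at 200 UMIs, 187 for the largest piece, 699 without the richest spots and 214 for pieces of 2 or more. Genes above both zones (31) numbered 125 with the mean of spot CPM, 48 and 12 at 50 and 200 UMIs, and 51 for the largest piece. Genes below both (6) numbered 12 with the core at 20%, 14 with a border of 1 step, 1 with far from 5 steps, 10 at 1000 UMIs a spot, 22 with the mean of spot CPM, 11 with TMM and 11 with DESeq2 factors, 13 and 1 at 50 and 200 UMIs a gene, 20 with far weighted by depth and 18 without the richest spots. The gene minimum itself changes how many genes are compared, and the cause of the other shifts was not tested.

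The core share decides which genes stand above both zones. At 10% there were 43, of which 6 were among the 31 reported. At that setting 118 of the 234 border spots became far, 15 core spots became border and 12 core spots became far. The part of each move in the lost calls was not tested. Signs that turned at 10% were those of *Casq2* (-1.07), *Chrna1* (-1.16), *Igf2* (-0.19), *Myh8* (-0.64), *Myog* (-0.045) and *Tnnc1* (-0.51) over far, and of *Pald1* over core (0.00589). *Chrna1* over far also turned with a border of 1 step (-0.055), the mean of spot CPM (-0.011), the largest piece (-0.26), without the richest spots (-0.028) and with pieces of 2 or more (-0.28). Further turns over far were *Chmp1b* with the core at 20% (0.017), *Trmt2a* with far from 5 steps (0.079), *Lce1b* (0.078) and the suprabasal epidermis list (0.11) with the mean of spot CPM, and *Myh1* without the spots richest in muscle fibre genes (0.089). *Tnnc1* over core turned without the richest spots (-0.23). *Ccn3* was above both zones under all 18 settings, *Myh8*, *Myl4* and *Thbs4* under 17 and *Mgp* under 15, while *Cnot7* and *Tpcn1* kept it under 3, *Orai2* under 4, *Il33* under 5, *Sfrp4* under 6 and *Cav3* and *Chrna1* under 7. Over these settings the log2 ratio of *Mgp* to far ran from 0.54 to 1.35. The macrophage list stayed above far, from 0.37 to 0.77.

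No paired analysis was possible because each day had 1 section and the labels give no replicate numbers. Depth limits genes with few UMIs, such as the 6 below both zones with 30 to 72 border UMIs.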

Other observations

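Interferon-stimulated genes had no common order across the zones. *Isg15*, a ubiquitin-like antiviral protein, had 72 UMIs in the Day 7 core, 39 in the border and 5 in the far spots, a log2 of 2.53 above far with a wide interval (1.18 to 4.23) and 1.53 below the core. *Irf7* and *Bst2* were lower than core (-0.73 and -0.89), while *Rsad2* was lower than far (-0.73) and had 21, 36 and 44 UMIs. Of the 7 genes compared, 1 was higher and 1 lower than far, and 3 were lower than core. The proliferation marker *Mki67* was higher in the border than far (45.3, 40.2 and 23.9 CPM in core, border and far), and it was the only one of 11 listed proliferation genes called against far. Of 16 respiratory chain genes, 3 were higher than core, beside 11.0% of all genes compared, among them *Cox6a2* and *Cox7a1*, both muscle isoforms of cytochrome oxidase subunits. Of 12 glycolysis and hypoxia genes, *Hk2* and *Bnip3* were higher than core and *Eno1*, which has pseudogene copies, was lower.

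Of 7 sebaceous and lipid synthesis genes, 5 were higher than core and 1 was lower than far (*Elovl3*, 11.8, 31.6 and 63.7 CPM), and fat also expresses several of them. T cell, neutrophil, mast cell and lymphatic lists each had 1 gene past the UMI minimum, so they were not resolved at this depth.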
